A study of Mus musculus with 12 samples.

Results

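The genes described are 10 immediate early genes: the AP-1 subunits Fos, Fosb, Jun, Junb and Jund, the transcription factor gene Egr1, and Ier2, Dusp1, Zfp36 and Btg2. They were taken by gene symbol from a table of 13016 genes, where all 10 were present, and all 10 passed a filter on low values (1 RPKM or more in 4 or more of the 12 libraries), as did 10690 genes in all. RPKM is a read count scaled to transcript length and library size. The 10 genes were selected on earlier results of the same libraries, their RPKM fold changes between groups, in which Fos, Jun and Zfp36 stood lower in dKO_Flt3ITD than in control, and Fos and Egr1 lower than in dKO. Differences of dKO_Flt3ITD from the other groups are therefore given as descriptions.

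The cells were early thymic progenitors, the first T-lineage cells of the thymus, from C57BL/6 mice, and each library held 100 cells sorted by flow cytometry, with 4 libraries per group. All groups, controls included, were homozygous for floxed Ezh2, which encodes a histone methyltransferase of Polycomb repressive complex, and for floxed Runx1, a transcription factor gene needed to form blood stem cells. The dKO_Flt3ITD group was Rag1Cre+ and also carried Flt3 ITD/+, an internal tandem duplication in 1 allele of the cytokine receptor gene Flt3. The dKO group was Rag1Cre+ without the Flt3 allele, and the labels name no Cre in the control group. Rag1 is switched on as cells enter the lymphoid lineage, so deletion by such a Cre need not be complete in cells this early. The labels do not give age, and whether the 4 libraries of a group are 4 animals is not stated, so each p-value reflects the spread among libraries, which may be technical.

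Immediate early genes are transcribed within minutes of a signal, without new protein synthesis, because the factors that switch them on, such as SRF with its ELK partners and CREB, are already in the nucleus and are activated by phosphorylation. FOS and JUN proteins pair to form AP-1, which binds DNA and switches on a later wave of genes. The messages are short-lived, and some products act back on the response: DUSP1 removes phosphate from MAP kinases, and ZFP36 binds AU-rich messages and speeds their decay. In the thymus these genes respond to receptor signals in developing T cells, and in many tissues they also respond to the handling that frees cells for sorting.

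The whole reads behind the RPKM values totalled 13623436 to 33985972, so that 1 read of Fos was worth between 0.0165 and 0.0313 RPKM. All 13 listed progenitor markers were in the table, and Kit, Cd34, Cd44 and Notch1 were present in every group. Ccr9, a chemokine receptor gene of cells that enter the thymus, was near 0 in dKO_Flt3ITD, at 0.0855 RPKM in 1 library and 0 in the other 3, and averaged 2.16 RPKM in dKO and 9.09 RPKM in control. The summed level of the 13 was 573 to 928 RPKM in dKO_Flt3ITD, 680 to 838 RPKM in dKO and 968 to 1301 RPKM in control. Not all of the 13 were lower: Lyl1 averaged 66.4 RPKM in dKO_Flt3ITD, 44.0 RPKM in dKO and 35.0 RPKM in control. Spi1 averaged 44.0, 20.3 and 27.2 RPKM in the same groups, and the other markers had lower means in dKO_Flt3ITD than in control. Ezh2 averaged 16.4 ± 5.59 RPKM in dKO_Flt3ITD, 22.6 ± 5.87 in dKO and 39.8 ± 5.83 in control (SD, n = 4 each). Runx1 was higher in the libraries labelled as mutant, at 47.5 ± 11.8 and 46.4 ± 11.1 RPKM in dKO_Flt3ITD and dKO against 21.2 ± 4.57 in control (SD, n = 4 each), and a value over the whole gene does not check the deletion. Control 1 stood apart, with a mean correlation of 0.786 with the other libraries over tested genes, the lowest of the 12.

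As genes, most of the 10 have few exons, but not all are short. The transcripts of Egr1 (4484 bases), Fosb (3782) and Jun (3189) are longer than the median of tested genes, 3037 bases. The GENCODE record of Dusp1 spans 56539 bases (chr17:26505590-26562128), but its transcript has 1990 bases. The RefSeq promoter window used below, chr17:26508473-26508722, lies inside that span, so the record is wider than the RefSeq gene. In GENCODE mouse release 21 on GRCm38, Jun, Junb, Jund and Ier2 have 1 exon, and 7 of the 10 have 1 or 2 exons, against 6.12% of 9586 tested genes with a model. Their transcripts have a median GC content of 55.8%, against 49.7%, and that of Jund is the highest at 67.1%. The nonamer TTATTTATT, a core of AU-rich decay elements, is in the 3′ UTR of Fos, Dusp1 and Zfp36, 3 of 10, against 7.96% of tested genes. The shorter ATTTA occurs 2.40 times per 1000 bases over the 3′ UTRs of all 10 genes, against 1.85 over those of tested genes. The stretches of 30 bases below, from GRCm38, show the AU-rich element of each of these 3 genes, with ATTTA in capitals; they lie at chr12:85477092-85477121 (plus strand), chr17:26506167-26506196 (minus strand) and chr7:28376961-28376990 (minus strand).
Fos 3′ UTR: cgtttttattgtgttttcaATTTATTTAtt
Dusp1 3′ UTR: ggctcatgggagctggtccttATTTATTTA
Zfp36 3′ UTR: ggccctttATTTAtgacgactttATTTAtt

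The 250 bases upstream of the start, from RefSeq, were searched for 8 of the 10 genes, all but Egr1 and Ier2. Both strands were searched for the motifs of the pathway, and the counts below say nothing about Egr1 or Ier2. The cyclic AMP response element TGACGTCA, bound by CREB and CREM, was in 2 of 8, Dusp1 at 143 bases and Btg2 at 166 bases upstream, against 1.55% of 32817 promoters. Its core TGACG, which the full element contains, was in 5 of 8, against 17.7%. The CArG box, bound by SRF, was in 1 of 8, Zfp36 at 58 bases upstream, against 1.47%, and the EGR site GCGNGGGCG was in 3 of 8, Fosb, Zfp36 and Btg2, against 4.70%. TATAAA was in 1 of 8, Fos at 33 bases upstream, against 12.4%, and TTCNNNGAA, the STAT site, in 1 of 8, Zfp36, against 7.01%. The AP-1 site TGANTCA and the RUNX core TGTGGT were in 0 of 8, against 6.75% and 14.0%. These are matches of letters in this window and say nothing about binding or about sites farther upstream. The Jund window ends at chr8:70697738, whereas its GENCODE gene starts at chr8:70698949, so the window does not adjoin that start. Promoters of the 3 genes that passed the test described below, and of Dusp1 for its full element, are shown from RefSeq on GRCm38.p6 with CArG boxes and cyclic AMP elements or their TGACG cores in capitals, at chr12:85473640-85473889 (plus strand), chr4:95052223-95052472, chr7:28379229-28379478 and chr17:26508473-26508722 (minus strand); that of Jun has none.
Fos promoter: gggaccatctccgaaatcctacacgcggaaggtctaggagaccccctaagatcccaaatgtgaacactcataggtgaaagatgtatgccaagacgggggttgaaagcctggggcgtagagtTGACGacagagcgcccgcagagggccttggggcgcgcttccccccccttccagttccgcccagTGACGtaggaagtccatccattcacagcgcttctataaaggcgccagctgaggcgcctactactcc
Jun promoter: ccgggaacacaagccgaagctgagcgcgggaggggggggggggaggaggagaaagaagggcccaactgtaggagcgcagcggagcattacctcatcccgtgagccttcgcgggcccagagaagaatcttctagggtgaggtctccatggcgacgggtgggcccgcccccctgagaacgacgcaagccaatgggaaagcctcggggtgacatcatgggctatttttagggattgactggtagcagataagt
Zfp36 promoter: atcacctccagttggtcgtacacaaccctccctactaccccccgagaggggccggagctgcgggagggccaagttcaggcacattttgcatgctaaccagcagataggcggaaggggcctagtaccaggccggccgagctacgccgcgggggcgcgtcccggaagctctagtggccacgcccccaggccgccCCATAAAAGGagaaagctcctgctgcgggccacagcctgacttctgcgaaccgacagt
Dusp1 promoter: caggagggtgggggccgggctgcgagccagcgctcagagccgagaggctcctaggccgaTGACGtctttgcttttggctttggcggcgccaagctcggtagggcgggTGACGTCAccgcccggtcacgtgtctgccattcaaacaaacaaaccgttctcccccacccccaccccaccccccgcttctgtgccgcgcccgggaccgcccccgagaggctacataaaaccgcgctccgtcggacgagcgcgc

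Fos had the highest mean level of the 10 genes in dKO, at 64.9 ± 24.3 RPKM, and in control, at 141 ± 102 RPKM, but ranked 7th in dKO_Flt3ITD at 3.79 ± 5.80 RPKM (SD, n = 4 each). Ier2 had the highest mean in dKO_Flt3ITD, at 25.3 ± 11.5 RPKM. The lowest means were those of Egr1 in dKO_Flt3ITD (0.114 ± 0.219 RPKM), Fosb in dKO (0.902 ± 0.869 RPKM) and Jund in control (2.79 ± 1.13 RPKM). In each group the ranges of every 2 neighbours in the order of means overlapped. Genes are measured in the same libraries, so such overlap does not decide their order within a library. In all 4 controls Fos lay above Zfp36 and Btg2 above Jun, whereas Zfp36 lay above Ier2 in controls 1, 2 and 3 but not in control 4.

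**Figure D1:**
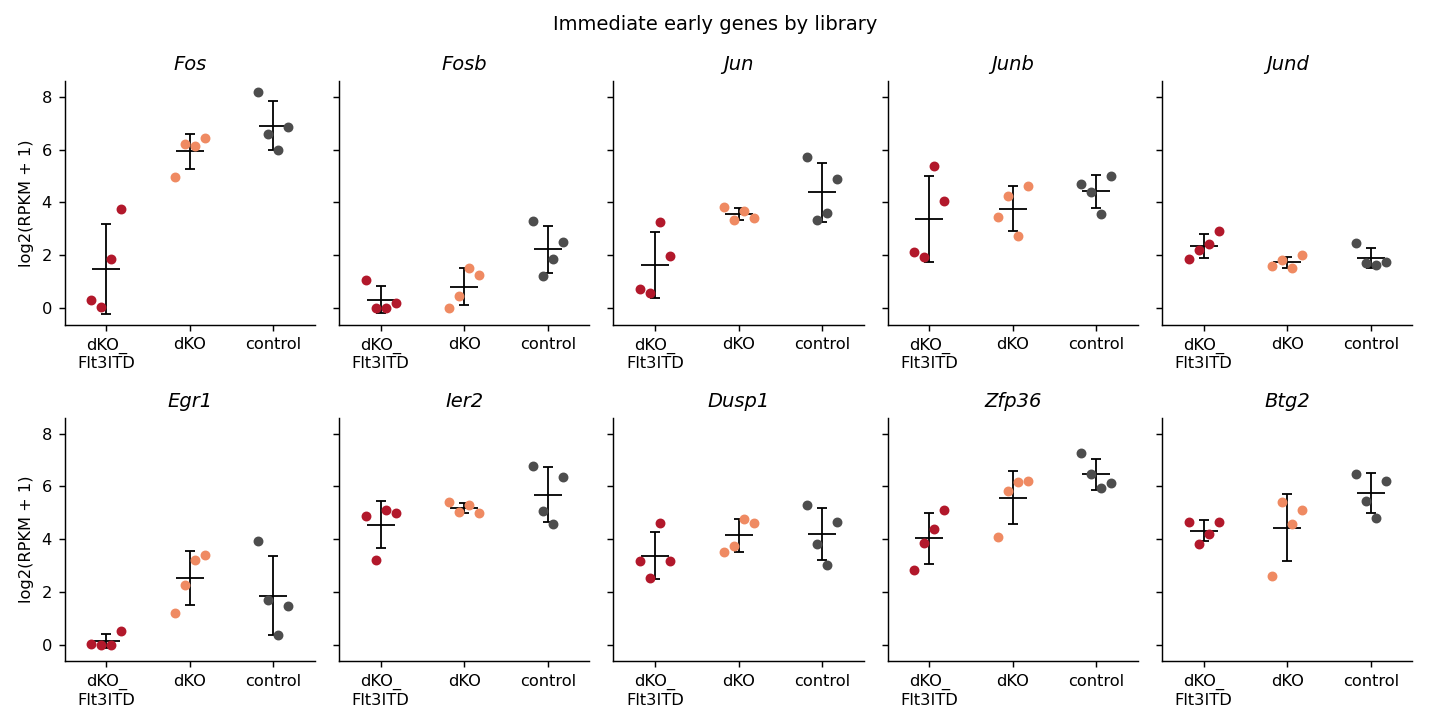
Level of each gene as log2(RPKM + 1) in every library (points, left to right in replicate order within a group), with the group mean and SD (bar and whiskers, n = 4). All 4 dKO_Flt3ITD libraries lie below all dKO and control libraries for Fos and Jun, whereas the 3 groups overlap for Jund.

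Fos encodes the AP-1 subunit that cannot pair with itself and needs a JUN partner. Its level was 0.245, 0.0256, 2.57 and 12.3 RPKM in dKO_Flt3ITD, 30.2, 73.9, 68.8 and 86.7 RPKM in dKO, and 289, 94.6, 62.6 and 116 RPKM in control. Every dKO_Flt3ITD library lay below every dKO and control library, and dKO and control overlapped. In reads, the dKO_Flt3ITD libraries held 14, 1, 133 and 626 Fos reads, whereas the lowest control held 3271. The mean was 37.1-fold lower in dKO_Flt3ITD than in control and 17.1-fold lower than in dKO. Replicate 4 carried most of that mean, and without it the mean was 0.948 RPKM, 148-fold lower than in control and 68.5-fold lower than in dKO. After taking log2(RPKM + 1), a scale that compresses differences near 0 RPKM, the difference was -5.42 (SE 0.68) against control and -4.46 (SE 0.68) against dKO. These values depend on the scale: against control they ran from -4.02 with a pseudocount of 5 RPKM to -7.22 with voom. The spread within groups was wide, with 1 to 626 Fos reads in dKO_Flt3ITD, 1056 to 4067 in dKO and 3271 to 16435 in control. In bulk samples, fewer cells with a message and less message per cell cannot be told apart.

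Fosb, a FOS relative that also pairs with JUN proteins, was low throughout. It had 1.09, 0, 0 and 0.153 RPKM in dKO_Flt3ITD, 0, 0.365, 1.88 and 1.37 RPKM in dKO, and 8.71, 1.34, 2.63 and 4.70 RPKM in control. All dKO_Flt3ITD libraries lay below all controls, while dKO overlapped with both. The log2 difference was -1.90 (SE 0.54) for dKO_Flt3ITD against control, -0.49 (SE 0.54) against dKO, and -1.42 (SE 0.54, limma adjusted p = 0.361) for dKO against control. At such low levels the pseudocount sets much of the value, which for dKO_Flt3ITD against control was -0.76 with a pseudocount of 5 RPKM, -3.94 with 0.1 RPKM and -6.09 with voom.

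Jun encodes the main partner of FOS. It had 0.657, 0.488, 8.53 and 2.87 RPKM in dKO_Flt3ITD, 13.3, 9.19, 11.6 and 9.55 RPKM in dKO, and 51.9, 8.97, 11.1 and 28.7 RPKM in control. The dKO_Flt3ITD libraries lay below all others, and replicate 3 was close to the lowest control. The log2 difference was -2.76 (SE 0.63) against control and -1.93 (SE 0.63) against dKO.

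Junb, a JUN family member that can restrain JUN, had 3.35, 2.83, 40.3 and 15.7 RPKM in dKO_Flt3ITD, 9.92, 18.1, 5.58 and 23.6 RPKM in dKO, and 25.1, 20.1, 10.9 and 31.4 RPKM in control. The groups overlapped, and dKO_Flt3ITD held both the lowest library and the highest, 14.2-fold apart. The log2 difference was -1.05 (SE 0.67) for dKO_Flt3ITD against control and -0.39 (SE 0.67) against dKO. Its direction against dKO depended on the scale, since the mean was 15.5 RPKM in dKO_Flt3ITD and 14.3 RPKM in dKO. Jund, the family member that is usually present without a stimulus, had 2.63, 3.62, 4.36 and 6.53 RPKM in dKO_Flt3ITD, 2.04, 2.51, 1.82 and 2.98 RPKM in dKO, and 4.47, 2.21, 2.10 and 2.38 RPKM in control. It was the 1 gene of the 10 with a positive log2 difference for dKO_Flt3ITD, 0.47 (SE 0.45) against control and 0.62 (SE 0.45) against dKO, with overlapping groups.

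Egr1 encodes a zinc finger factor and is a classical target of ERK signalling through SRF. It had 0.0120, 0, 0 and 0.443 RPKM in dKO_Flt3ITD, 1.29, 3.80, 8.19 and 9.67 RPKM in dKO, and 14.2, 2.22, 0.274 and 1.78 RPKM in control. Between them, the 4 dKO_Flt3ITD libraries held 1, 0, 0 and 33 reads. All dKO_Flt3ITD libraries lay below all dKO libraries, with a log2 difference of -2.38 (SE 0.68), but overlapped with control, where it was -1.72 (SE 0.68). With pseudocounts of 5 and 0.1 RPKM these became -0.99 and -4.86 against dKO, and -0.72 and -3.81 against control, and with voom -7.53 and -6.24. By group means Egr1 was 50.5-fold lower than in dKO and 40.8-fold lower than in control, and replicate 4 held 33 of its 34 reads in dKO_Flt3ITD. Egr1 was the 1 gene of the 10 with a positive difference for dKO against control, 0.66 (SE 0.68, limma adjusted p = 0.880), with overlapping groups.

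Ier2, an early response gene with a nuclear product, had 28.5, 8.28, 33.6 and 30.8 RPKM in dKO_Flt3ITD, 40.9, 31.5, 38.7 and 31.1 RPKM in dKO, and 108, 32.2, 23.0 and 80.3 RPKM in control. The groups overlapped, and 3 of 4 dKO_Flt3ITD libraries were close to the dKO level. The log2 difference was -1.14 (SE 0.50) for dKO_Flt3ITD against control and -0.63 (SE 0.50) against dKO.

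Among the genes whose products limit the response, Dusp1 had 7.96, 4.78, 23.5 and 8.10 RPKM in dKO_Flt3ITD, 10.4, 12.3, 26.4 and 23.3 RPKM in dKO, and 38.5, 13.2, 7.08 and 24.1 RPKM in control. The groups overlapped, with a log2 difference of -0.83 (SE 0.55) for dKO_Flt3ITD against control and -0.78 (SE 0.55) against dKO. Zfp36 had 6.07, 13.3, 19.6 and 33.1 RPKM in dKO_Flt3ITD, 15.9, 56.3, 70.9 and 72.4 RPKM in dKO, and 154, 87.5, 60.3 and 68.9 RPKM in control. All dKO_Flt3ITD libraries lay below all controls, with a log2 difference of -2.42 (SE 0.53), and overlapped with dKO through dKO 1, with a difference of -1.54 (SE 0.53). Btg2, which slows cell division and aids message decay, had 24.0, 12.9, 17.2 and 24.3 RPKM in dKO_Flt3ITD, 5.03, 41.5, 22.9 and 33.6 RPKM in dKO, and 88.1, 42.8, 27.1 and 73.6 RPKM in control. All dKO_Flt3ITD libraries lay below all controls, with a log2 difference of -1.42 (SE 0.54), while the dKO group spread on both sides of dKO_Flt3ITD, with a difference of -0.10 (SE 0.54).

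Set side by side, 9 of the 10 genes had a negative log2 difference for dKO_Flt3ITD against control, as had 49.9% of all tested genes, with a median of -1.57, against 0.00 over all tested genes. A gene was called where limma's Benjamini-Hochberg adjusted p over all 10690 tested genes was below 0.05. Fos, Jun and Zfp36 were called lower, 3 of 10, and 0 were called higher; over all tested genes 0.505% were called lower and 0.992% higher. Groups did not overlap, with dKO_Flt3ITD lower, for 5 of 10 genes (Fos, Fosb, Jun, Zfp36 and Btg2), against 3.51% of all tested genes. Since this difference helped to choose the genes, nothing is drawn from these counts. With voom on the recovered reads 0 of the 10 were called, as 0.131% of all tested genes were called lower; the Fos difference was then -7.22 (SE 1.76). Fos was called in all 12 fits that left out 1 library, whereas Jun and Zfp36 were each called in 7 of them. Without control 1 only Fos was called, as it was without control 4, dKO_Flt3ITD 1 or dKO_Flt3ITD 2; Jun was also lost without dKO 3, and Zfp36 without control 2.

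Against dKO, 9 of 10 genes were again negative in dKO_Flt3ITD, as were 49.7% of all tested genes, with a median of -0.71, against 0.00 over all tested genes. Fos, Jun and Egr1 were lower with no overlap, 3 of 10, against 2.2% of all tested genes, and this difference also helped to choose them. By limma 0 of the 10 were called, as 0% of all tested genes were, with 4 of 10 and 7.71% of all tested genes at an unadjusted p under 0.05. Voom also called 0. Fos was called in 4 of 12 fits without 1 library, those without dKO_Flt3ITD 3, dKO_Flt3ITD 4, dKO 1 or control 1, and the other 9 genes in 0. Both comparisons share the dKO_Flt3ITD libraries.

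For dKO against control, Rag1Cre with the same floxed alleles was compared without the Flt3 allele. None of the 10 passed the test: limma called 0 of 10 lower and 0 higher, against 0.234% and 0.786% of all tested genes, and voom also called 0. The groups overlapped for all 10 genes, against 2.38% of tested genes that were lower with no overlap. Of the 10, 9 had a negative difference, as had 49.3% of all tested genes, with a median of -0.74, against 0.01 over all tested genes. Unadjusted p was under 0.05 for 2 of 10, Fosb and Btg2 (adjusted p = 0.435), against 9.18% of all tested genes. Fos had a difference of -0.96 (SE 0.68, limma adjusted p = 0.788), Zfp36 -0.88 (SE 0.53, adjusted p = 0.714) and Dusp1 -0.04 (SE 0.55, adjusted p = 0.992), and these SEs leave room for differences of 1 log2 unit. This comparison shares its control libraries with dKO_Flt3ITD against control.

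**Figure D2:**
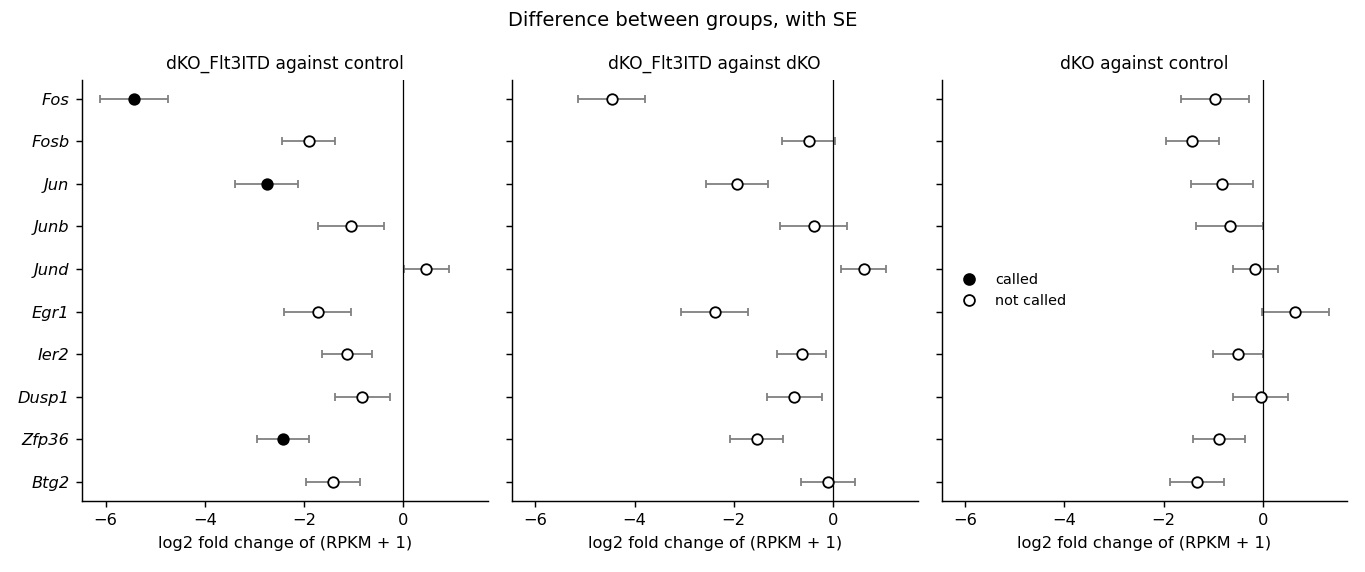
Log2 fold change of (RPKM + 1) for each gene in the 3 comparisons, with SE from limma; filled points were called at an adjusted p below 0.05 and open points were not. For dKO_Flt3ITD, Fos is at -5.42 and -4.46, and Jund is the 1 gene above 0; the distance from 0 of low genes such as Egr1 and Fosb depends on the pseudocount of 1.

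The genes moved together between libraries of 1 group. Over 45 pairs of genes, the median Pearson r of log2(RPKM + 1) with each group's mean removed was 0.58, and 44 of 45 pairs were positive (range -0.09 to 0.87, 12 libraries). Jund, whose median r with the other 9 genes was -0.08 before the group means were removed, had 0.59 after, and its highest, 0.87, was with Fos. These r values share libraries and depth and describe 12 libraries only. No r over pairs of other genes was set beside them, so they are not shown to be particular to these genes. Control 1 was the highest control for 9 of 10 genes and the highest of all 12 libraries for 8 of 10, while control 3 was the lowest control for 8 of 10. Replicate 2 was the lowest dKO_Flt3ITD library for 8 of 10 genes, and dKO 1 the lowest dKO library for 6 of 10. The mean of the 10 genes on the log2(RPKM + 1) scale was 2.16, 1.81, 3.12 and 3.13 in dKO_Flt3ITD, 3.06, 3.84, 3.96 and 4.20 in dKO, and 5.41, 3.97, 3.53 and 4.59 in control. Controls 1 and 3 were the farthest apart of the controls.

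**Figure D3:**
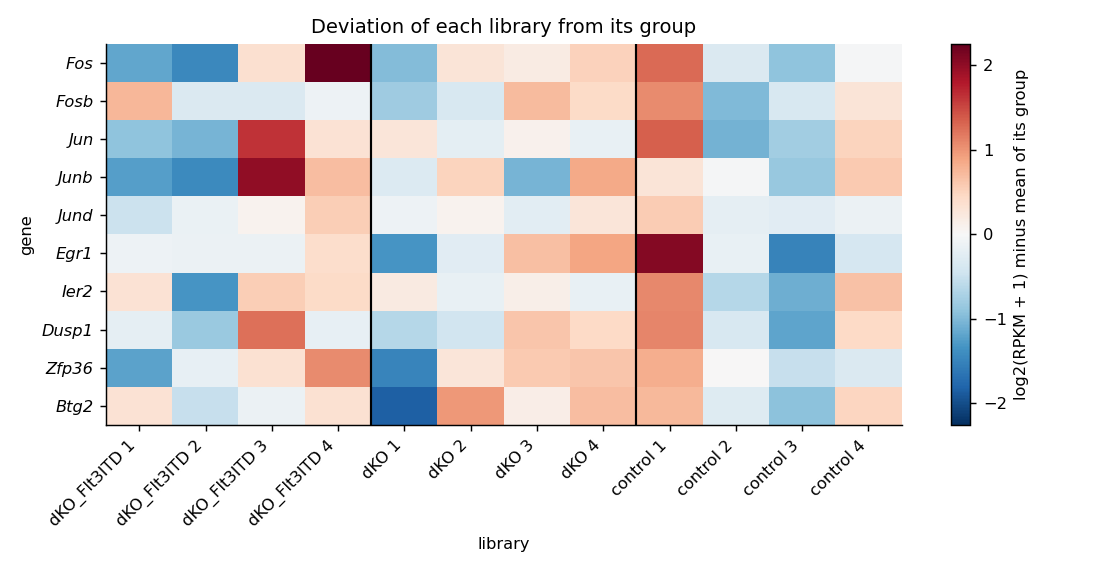
Level of each gene (vertical) in each library (horizontal) as log2(RPKM + 1) minus the mean of its group, red above and blue below that mean. Control 1 is above its group mean for all 10 genes and control 3 below it for all 10, and dKO_Flt3ITD 2 is below for all 10.

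Heat shock genes were looked at beside the spread of the controls. The inducible heat shock genes Hspa1a and Hspa1b, near-identical copies whose reads can be assigned to either, stood at 24.1 and 26.3 RPKM in control 1 and at 7.31 and 5.54 RPKM in control 4, the 2 controls with the highest mean of the 10 genes. In controls 2 and 3 both were at 0.0430 RPKM or less, and they were named after their values were seen. In dKO_Flt3ITD both were at 0 in replicates 1 and 4, where the mean of the 10 genes was 2.16 and 3.13. Hspa1a and Hspa1b stood at 0.460 and 3.78 RPKM in replicate 2, where that mean was 1.81. In replicate 3, where it was 3.12, they stood at 1.36 and 4.16 RPKM. Other genes of the list ran the other way in control 1, where the list's summed level, 3136 RPKM, was the lowest of the 12 libraries, and where the constitutive chaperone gene Hspa8 had 982 RPKM, against 2626 to 3352 RPKM in the other controls. Across groups the heat shock and handling list did not separate: 15 of 18 listed genes were tested, and 0 were called by limma in any comparison. Unadjusted p was under 0.05 for at most 1 of 15, against 7.71% to 13.4% of all tested genes. The list's summed level was 4042 to 5178 RPKM in dKO_Flt3ITD, 3232 to 6596 RPKM in dKO and 3136 to 6276 RPKM in control. For dKO_Flt3ITD against control 9 of the 15 were negative, with a median of -0.33. In that list Bag3 differed by 1.31 (SE 0.58, limma adjusted p = 0.330) and Hspd1, a mitochondrial chaperone gene, by -0.79 (SE 0.40, adjusted p = 0.401). The part of handling in the result was not tested.

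Markers of other cells were present in all groups. Later thymocyte markers, 6 of 8 listed in the table, summed to 6.16 to 61.6 RPKM in dKO_Flt3ITD, 61.4 to 141 RPKM in dKO and 16.4 to 39.6 RPKM in control, so that dKO lay above control without overlap. Of these Rag2, of antigen receptor gene recombination, averaged 27.8 RPKM in dKO_Flt3ITD, 84.2 RPKM in dKO and 12.4 RPKM in control. Rag1 and Cd4 also had higher means in dKO than in control, whereas Ptcra, Cd8a and Cd8b1 had lower ones. Ptcra averaged 7.75 RPKM in dKO_Flt3ITD, 5.87 RPKM in dKO and 14.5 RPKM in control. Macrophage markers, 8 of 9, summed to 53.3 to 154 RPKM in dKO_Flt3ITD, 49.4 to 150 RPKM in dKO and 19.2 to 66.7 RPKM in control. Granulocyte and monocyte markers, 6 of 8, summed to 98.4 to 1429 RPKM, 129 to 313 RPKM and 114 to 407 RPKM in the same groups, with Elane at 0 in all controls. Dendritic cell markers, 7 of 8 and Flt3 among them, summed to 162 to 553 RPKM in dKO_Flt3ITD, 128 to 187 RPKM in dKO and 146 to 240 RPKM in control, with Itgax at 0 in all dKO_Flt3ITD libraries. Markers of NK and innate lymphoid cells, 4 of 7, summed to 239 to 1502 RPKM in dKO_Flt3ITD, 600 to 1862 RPKM in dKO and 821 to 1713 RPKM in control. The globin gene Beta-s put the erythroid sum of dKO 1 at 2635 RPKM, against 33.0 RPKM or less in the other 11 libraries. The part of these cells in the result was not tested.

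Beyond the 10 genes, 28 of 38 other immediate early genes were tested. For dKO_Flt3ITD against control 22 of 28 were negative, with a median of -0.61, and 1 was called lower and 0 higher, where 49.9% of all tested genes were negative, 0.505% called lower and 0.992% higher. That gene was Ppp1r15a, which encodes GADD34, a stress-induced subunit that restores translation: it had 0.425, 0.989, 1.13 and 4.20 RPKM in dKO_Flt3ITD, 1.31, 33.8, 24.5 and 30.9 RPKM in dKO, and 60.4, 12.9, 26.8 and 28.6 RPKM in control. It fell by 3.61 on the log2 scale (SE 0.76, limma adjusted p = 0.0223), and it was not called by voom, nor without control 1, control 3, control 4, dKO_Flt3ITD 1 or dKO_Flt3ITD 2. Against dKO 19 of 28 were negative, with a median of -0.28 and 0 called by limma. An unadjusted p under 0.05 was found for 6 of 28, against 7.71% of all tested genes. Ppp1r15a had the smallest p, with a difference of -2.76 (SE 0.76, limma adjusted p = 0.331). Nfkbia, the inhibitor of NF-kappaB, was among those on the other side, at 1.36 (SE 0.38, limma adjusted p = 0.333). For dKO against control 20 of 28 were negative, with a median of -0.22 and 0 called by limma. An unadjusted p under 0.05 was found for 1 of 28, against 9.18% of all tested genes. That was the MAP kinase phosphatase gene Dusp5, which differed by 1.85 (SE 0.62, limma adjusted p = 0.246).

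Of 12 further AP-1 family genes, which supply other partners of JUN, 5 were tested. For dKO_Flt3ITD against control, 0.992% of all tested genes were called higher and 0.505% lower. Batf2, a basic leucine zipper gene, was called higher in dKO_Flt3ITD than in control, 1 of 5, with 0 called lower. It had 6.11, 8.53, 9.42 and 7.36 RPKM in dKO_Flt3ITD, 0, 0.958, 3.72 and 23.0 RPKM in dKO, and 0, 0, 0.0292 and 0.101 RPKM in control. No control reached 1 RPKM, so Batf2 passed the filter on low values only through the mutant groups, and nothing is drawn from its call. The log2 difference was 3.09 (SE 0.72, limma adjusted p = 0.0417), and it ran from 1.35 to 7.83 over the alternatives. Of 12 fits without 1 library Batf2 was called in 3, those without dKO 1, dKO 2 or dKO 4. Of the 13 other alternatives it was called in 8. It was not called with voom, a pseudocount of 5 RPKM, no filter on low values or a replicate block, nor without the 3 libraries numbered 1. The list's median was 0.11. Limma called 0 of 5 against dKO (median 0.63) and 0 for dKO against control (median -0.32). In each, 1 of 5 had an unadjusted p under 0.05, against 7.71% and 9.18% of all tested genes. Against dKO that gene was Maf, at -2.52 (SE 0.70, limma adjusted p = 0.333). For dKO against control it was Batf2, at 1.90 (SE 0.72, limma adjusted p = 0.361).

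All 27 listed upstream regulators, the kinases and nuclear factors that switch immediate early genes on or off, were tested, and 1 of them, Crem, was called. For dKO_Flt3ITD against control 11 were negative and 16 positive, with a median of 0.06. Of all tested genes 49.9% were negative, 0.505% were called lower and 0.992% higher. Crem was lower. It encodes a CREB relative, and its short ICER products repress genes with cyclic AMP elements. Its level was 1.56, 1.84, 0.00952 and 0.320 RPKM in dKO_Flt3ITD, 17.5, 12.3, 7.47 and 6.43 RPKM in dKO, and 8.81, 16.3, 19.9 and 18.8 RPKM in control, so that all dKO_Flt3ITD libraries lay below all others. Of the 27, 2 were lower with no overlap against control and 2 against dKO, beside 3.51% and 2.2% of all tested genes. Crem fell by 3.21 on the log2 scale against control (SE 0.51, limma adjusted p = 0.00280), was called in all 12 fits without 1 library and was not called by voom. Against dKO the difference was -2.66 (SE 0.51, limma adjusted p = 0.138). In that comparison 0 of the 27 were called by limma, and the median was -0.04. An unadjusted p under 0.05 was found for 2 of 27, against 7.71% of all tested genes. Srf, the factor that binds the CArG box, differed by 0.96 for dKO against control (SE 0.50, limma adjusted p = 0.625). In that comparison the median was 0.03 and limma called 0. An unadjusted p under 0.05 was found for 0 of 27, against 9.18% of all tested genes. Voom on the recovered reads called 0 genes of each of the 4 lists in every comparison.

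**Figure D4:**
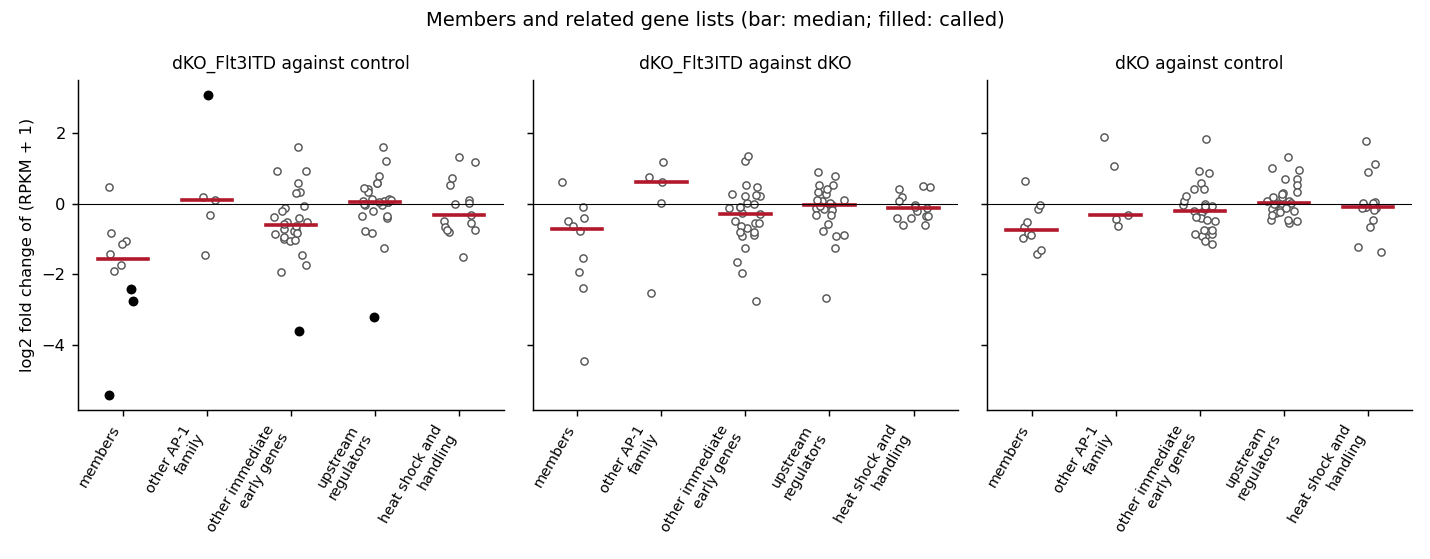
Log2 fold change of (RPKM + 1) for the 10 genes and 4 related lists in the 3 comparisons, 1 point per tested gene, filled where called at an adjusted p below 0.05, with the median as a bar. For dKO_Flt3ITD against control the medians are -1.57 for the 10 genes, -0.61 for other immediate early genes and 0.06 for upstream regulators.

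The genes most like Fos were sought among 7007 genes with a mean of at least 5 RPKM, by Pearson r of log2(RPKM + 1) over 12 libraries. The closest was Birc3, an inhibitor of apoptosis, with r of 0.96, and 0.90 after removal of group means. Its level was 5.59, 4.05, 7.49 and 15.2 RPKM in dKO_Flt3ITD, 15.3, 14.9, 24.6 and 22.0 RPKM in dKO, and 30.8, 17.3, 15.6 and 26.3 RPKM in control. Lin9 (0.93), Mir1931 (0.92), Zfp36 (0.92) and Nup107 (0.91) followed, with 0.75, 0.82, 0.83 and 0.41 after removal of group means, and Jun ranked 9th with 0.87. After that removal Birc3 was still the highest of these 5 genes and Nup107 was the lowest. Other genes of the 10 ranked far lower: Ier2 191st, Dusp1 388th, Btg2 481st and Junb 562nd. Fosb, Jund and Egr1 were below the cut of 5 RPKM. Fos, Jun and Zfp36 were selected with their lower level in dKO_Flt3ITD known, and that difference enters r over 12 libraries.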

How the data were processed

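SMARTer full-length libraries were made from 100 sorted cells each, per the labels' protocols. TopHat2 2.0.10, SAMtools 0.1.19 and HTSeq 0.5.4p5 are named in the submitters' processing notes, with mm10 as the build. The authors deposited 1 table of RPKM values for 13016 genes and 12 libraries, and all columns were matched to samples by description. Steps between RPKM values were used to recover reads: in 100% of genes the values were multiples of 1 read within 0.001.

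Where 4 or more libraries reached 1 RPKM a gene was kept (10690 genes). The test was limma 3.58.1 (R 4.3.3) with a trend on intensity, applied to log2 values of RPKM plus a pseudocount of 1, in a single fit of 3 groups of 4 libraries that left 9 residual degrees of freedom. P-values were adjusted by Benjamini-Hochberg, with a threshold of 0.05. The steps were tested on simulated data. Python 3.11.15 was used for the rest. Alternatives were other pseudocounts, filters and scalings, no trend, array weights, 8 libraries only, a replicate term, voom on the recovered reads, and leaving out each library or the 3 numbered 1.

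The genes and lists were chosen with earlier results of these data known. Per list, called genes are named, or the genes with the smallest p, whatever their direction, where none passed, of which the text gives some. PCR reads are not independent molecules, so read counts cover counting error only. Spi1, Adgre1 and Hbb-bs were matched under older symbols. A marker list is not reported here.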

Additional observations from a re-analysis of the deposited data

Results flagged for a closer look

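In 4 of 30 groups of 4 libraries (10 genes in 3 groups), 1 library stood far from the other 3, where chance gives about 1 in 20 groups for independent normal values; these groups share 12 libraries and hold skewed values with zeros, for which the rate was not measured. Egr1 was 14.2 RPKM in control 1, against 2.22 RPKM or less in the other controls, and 0.443 RPKM in dKO_Flt3ITD 4, against 0.0120 RPKM or less in the other dKO_Flt3ITD libraries. Jund was 4.47 RPKM in control 1, against 2.38 RPKM or less in the other controls. Fosb was 1.09 RPKM in dKO_Flt3ITD 1, where the other 3 libraries had 0.153 RPKM or less. Of these 4, 2 are in control 1, the library with the lowest correlation with the rest.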

How the results depend on the processing

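Over 25 alternatives in 3 comparisons, 706 of 750 fold changes of the 10 genes kept their direction and their side of the threshold, 21 lost the call, 9 gained it and 14 turned direction, none of the last called. For dKO_Flt3ITD against control, the count called lower was 3, against 1 with no filter on low values, 0 with voom and 1 to 3 without 1 library. For dKO_Flt3ITD against dKO it was 0, against 1 (Fos) with a pseudocount of 5 RPKM, a filter on the mean of at least 1 RPKM, the same sum or median of RPKM, or array weights, and 0 to 1 without 1 library. For dKO against control it was 0 in all. Differences of low genes moved severalfold with the scale while keeping their sign, as for Egr1 against dKO, from -0.99 with a pseudocount of 5 RPKM to -7.53 with voom. The turned values were, for dKO against control, Jund at 0.075 and Dusp1 at 0.54 without the 3 libraries numbered 1, and Dusp1 at 0.51 with array weights and 0.010 with voom. Without 1 library, Dusp1 ran from -0.44 to 0.32 and Jund from -0.24 to 0.034 in that comparison, and for dKO_Flt3ITD against dKO Btg2 ran from -0.71 to 0.23 and Junb from -1.06 to 0.087. The cause was not tested. With the replicate number as a block, 2 of 10 genes were called against control (not Jun). Deviations of same-numbered libraries from their group means had r of -0.15 to 0.13 over 12 pairs, 2 over 0.1. Such r cannot decide whether same-numbered libraries share an origin, and the labels do not say. Over all tested genes, calls for dKO_Flt3ITD against control numbered 160 (54 lower, 106 higher), against 91 with no filter, 235 (98 lower, 137 higher) with array weights, 32 with voom and 94 to 187 without 1 library. Scaling to the same sum of RPKM put the median of all genes at -0.21, and at -0.11 for dKO against control, and gave 84 lower and 84 higher against control. For dKO_Flt3ITD against dKO calls numbered 0, against at most 6. For dKO against control they numbered 109, against 64 with no filter, 210 with array weights, 5 with voom, 45 without the 3 libraries numbered 1 and 58 to 150 without 1 library.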
